A study of Mus musculus with 33 samples.

Results

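The 10 in vitro fertilised (IVF) control blastocysts of a mouse cloning study were examined one embryo at a time, 10 of 33 arrays in all. They were chosen by their labels, which name IVF in place of a nuclear donor, and fall into 7 male and 3 female embryos. The study compared cloned blastocysts with such controls, and no clone enters any value here. All 10 embryos carried the strain label (C57BL/6NxDBA/2)F1 and were cultured for 96 h in KSOM, a simple medium for mouse embryos. The trichostatin A treatment in the labels concerns reconstructed oocytes, and the labels name no treatment of the IVF embryos. Each array measured the RNA of 1 whole blastocyst, which was amplified by a linear method and labelled with Cy3. The labels number the embryos and do not tie them to a litter or a fertilisation session, so a p-value here rests on the spread among these arrays, part of which may be technical. Embryos are called male 1 to male 7 and female 1 to female 3, after the replicate numbers.

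A mouse blastocyst is a fluid-filled ball with an outer epithelium, the trophectoderm, which forms the placenta, and an inner cell mass. The inner cells separate into epiblast, the source of the fetus, and primitive endoderm, which lines the yolk sac, and FGF signalling from epiblast precursors drives that choice. Embryos of one culture age can differ in how far this has gone and in cell number. The arrays read whole embryos, so fewer cells of a type and less RNA per cell cannot be told apart.

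A level below is the log2 of a probe's background-corrected signal over the 75th percentile of its array, so 0 is the 75th percentile and 1 unit is 2-fold. Signals below 0.0189 of that percentile were set to it, which gives -5.72, and values at this floor have no order. Levels of different probes cannot be compared with each other. The software called 56.3% to 61.3% of the probes well above background per array. Male 1 to male 4 lay on 1 slide, male 5 with the 3 females on another, and male 6 and male 7 on the last. The median signal relative to the 75th percentile also differed between arrays. Against the mean of the males it was lowest in female 3 (-0.45), male 4 (-0.37), male 5 (-0.35) and female 1 (-0.30). It was highest in male 6 (0.31), male 7 (0.17) and male 1 (0.13).

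The blastocyst label was checked against the 4 markers Gata6, Nanog, Cdx2 and Krt8, and each was well above background on all 10 arrays. Pou5f1, a pluripotency factor, lay at 4.44, 4.34, 4.02, 4.41, 4.40, 4.29 and 4.13 in male 1 to male 7 and at 4.08, 4.68 and 4.01 in the females. Its SD over the males was 0.16, so the embryos were close to one another in this gene. Of the markers of other cells, 12 of 21 cumulus cell genes, 16 of 27 oocyte genes and 9 of 15 sperm genes passed the filter that removes dim probes. Well above background in all 7 males were 4 of the cumulus cell genes, 9 of the oocyte genes and 7 of the sperm genes. Over the genes that passed with values in all males, the mean level per male embryo ranged from -4.03 to -3.14, from -2.34 to -1.53 and from -4.20 to -3.30, respectively. The genes named next are dim members or ones that did not pass, and do not stand for the lists. The cumulus markers Fshr and Amh did not exceed -3.97 in any embryo. Ptx3, Tnfaip6, Bmp15, Nlrp5 and Akap4 did not pass, and the protamine genes Prm1 and Prm2 lay between -5.72 and -4.09 in all 10 embryos.

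Most genes differed little from embryo to embryo. Of 17664 genes that passed, 13200 were well above background in all 7 males, and their median SD was 0.52, a spread of 1.44-fold. An SD of at least 1 was reached by 1524 of them (11.5%), and an SD of at least 2 by 77. In the 3 females the median SD was 0.39 over 14327 genes, and 1892 (13.2%) reached 1. Spots of one probe printed 10 times on an array gave a smaller spread. Over 118 such probes well above background on every array, the median SD was 0.143 between spots and 0.561 between male embryos. Spots of one array share the same amplified and labelled RNA, so their SD leaves out variation from amplification, labelling and array. Variation differed with the level: 33.9% of genes with a mean between -4 and -2 had an SD of at least 1, against 1.15% of genes with a mean above 4. Of the dimmest genes, with a mean below -4, 8.24% did.

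Genes that varied among males also varied among females more often than other genes did. Over 12763 genes measured in both groups, 569 reached an SD of 1 in both, which is 41.9% of the variable genes of the males and 41.4% of those of the females. Among genes that were not variable in males, 7.08% were variable in females. X-linked genes were variable in 17.5% of cases (63 of 361) and autosomal genes in 10.2% (1120 of 10978). These are descriptions of the 2 sets of arrays, with no test. The genes compared were not matched for level, with which the SD differed. A second probe of the same gene followed the first in part: its median correlation over the 7 males was 0.40 for 4059 genes and 0.55 for the 260 variable genes that had one.

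Of 31 gene lists, those of stress and unfolded protein response genes and of primitive endoderm genes had the highest SD between male embryos as scaled here. For each list the levels were centred per gene on the male mean and averaged in each embryo. The SD of that mean over the males was 0.65 for the stress list and 0.63 for the primitive endoderm list, against a median of 0.24 over the lists. With the slide means removed the values were 0.51 and 0.70, and the Magea and Xlr list (0.53) and the Y-linked list (0.52) then exceeded the stress list. Over 16 settings the stress list ranked 1 to 7 of the 31 and the primitive endoderm list 1 to 4. The list of X-linked Magea and Xlr germline genes was the next by SD (0.52), with the caution that near-identical members of these families may share signal. The smallest values were those of genes for junctions and fluid transport (0.06) and for glycolysis (0.04). The epiblast list (0.17) and the trophectoderm list (0.15) lay below the median.

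**Figure D1:**
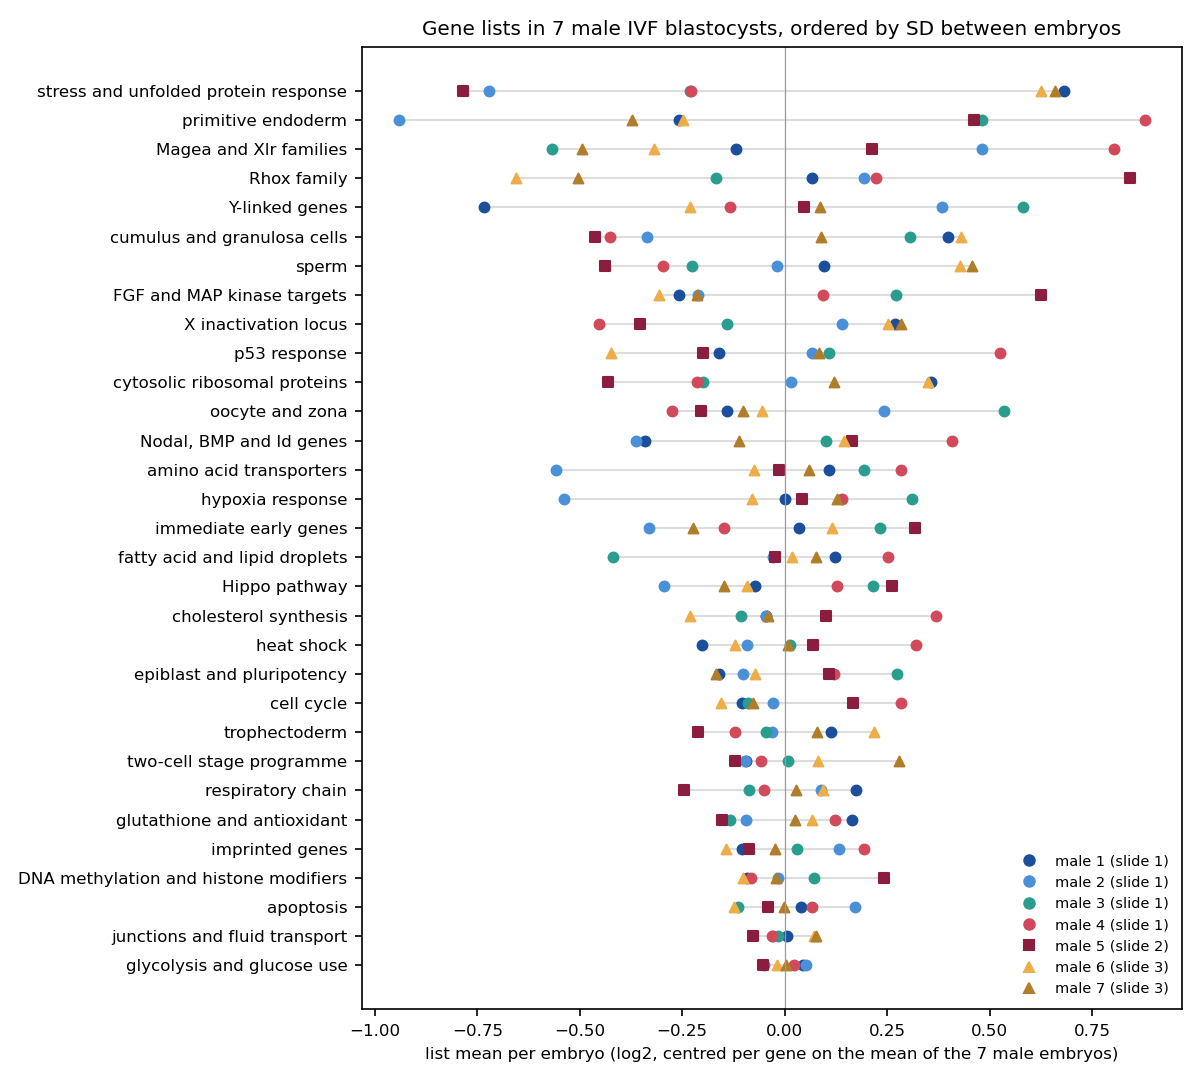
Mean log2 level of each of 31 gene lists in the 7 male embryos, centred per gene on the male mean; each line is a list and each point an embryo, with its slide given by the shape. The primitive endoderm, Rhox and stress lists span 1.82, 1.5 and 1.46 log2 units among the males, and the glycolysis list spans 0.10.

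Primitive endoderm genes were highest as a group in male 4 and lowest in male 2. The mean of the 28 of 30 listed genes that passed was 0.88 in male 4, 0.48 in male 3 and 0.46 in male 5. It was -0.25 in male 6, -0.26 in male 1, -0.37 in male 7 and -0.94 in male 2. Male 4 stayed highest and male 2 lowest under median scaling, quantile normalization, normexp background correction and in the authors' value table. Male 4 and male 5 were also the male arrays with the low median signal, and male 3 was not (0.03). Among the females, female 2 had the lowest mean (-0.46) and female 3 the highest (0.38). Of the 27 members well above background in all males, 16 (59.3%) were higher in each of male 3, male 4 and male 5 than in every other male, against 14.6% of all 13200 genes. That split was chosen after the means were seen. An SD of at least 1 was reached by 3 of 27 members (11.1%), near the share of all genes (11.5%). The list mean was 1.60 to 3.42 per male, however. Genes with a mean of 0 to 2 and of 2 to 4 reached that SD in 5.93% and 2.06% of cases. Members were not matched for level. The median correlation between members over the males was 0.65, against about 0 between genes in general.

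Genes of endocytosis and secretion in this lineage ranged from widely spread (Amn, Srgn, Cubn) to steady (Dab2, Lrp2). Amn encodes the membrane partner of cubilin, and it lay at 1.34, -4.73, 2.98, 3.40, 1.05, 1.77 and 0.43 in male 1 to male 7 and at 0.38, -2.28 and 2.06 in the females (SD 2.69 in males). Male 2 was far below the rest, and female 2 was the lowest of its group. Cubn, cubilin itself, lay at 2.40, 1.99, 4.68, 4.89, 3.33, 2.50 and 2.85 in the males and at 3.75, 3.55 and 4.96 in the females (SD 1.14). Male 3 and male 4 were the highest, and the range was 7.45-fold. Srgn, which encodes a proteoglycan core protein, measured 1.01, -0.26, 2.55, 4.19, 3.14, 0.82 and 0.50 in the males and 2.57, 0.83 and 3.82 in the females (SD 1.61). Male 3, male 4 and male 5 lay above the other males, and male 2 was again lowest. The scavenger receptor gene Lrp2 (SD 0.24) and its adaptor Dab2 (SD 0.34) varied less.

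Of the transcription factors, Sox7 varied most and Gata6 least. Sox7, which marks maturing primitive endoderm, was well above background in 6 of 7 males, at -0.95, -5.72, 1.94, 2.09, 1.57, -0.19 and -1.22, and at 2.09, -0.93 and 2.34 in the females. Male 3, male 4, male 5, female 1 and female 3 lay above the others, and male 2 was at the floor. Sox17 ranged only from 2.92 in male 1 to 4.39 in male 4 (SD 0.51), and Gata4 from -3.46 in male 7 to -1.75 in male 4 (SD 0.65). Second probes of Gata4 and Sox17 did not follow them (r = -0.25 and 0.02 over the males). Gata6, the earliest factor of the lineage, lay at 5.39, 5.66, 5.71, 5.68, 5.71, 5.22 and 5.32 in the males and at 6.31, 5.88 and 5.53 in the females. By this probe and scaling it fell into a lower set (male 1, male 6 and male 7) and a higher set, with a range of only 1.40-fold over the males. Its second probe did not follow it (r = -0.64). The SD of Gata6 over the males was 0.21 here and 0.08 to 0.44 under the alternatives. Foxa2 (SD 0.83) and Hnf4a (SD 0.68), factors of endoderm, lay between these extremes.

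Receptor and matrix genes of the primitive endoderm varied by several fold. Pdgfra, the receptor by which the lineage is often sorted, measured 2.33, 2.80, 3.51, 4.40, 4.66, 2.32 and 2.63 in the males (SD 0.97), a 5.05-fold range, and 3.53, 3.73 and 3.24 in the females. Lamb1, a laminin chain of the basement membrane, lay at 3.84, 4.34, 5.61, 5.67, 5.33, 3.72 and 3.76 in the males (SD 0.90). In both genes male 3, male 4 and male 5 were above the other males with no overlap. Lama1 (SD 0.85), Lamc1 (0.69), the collagen chaperone gene Serpinh1 (0.69), Col4a2 (0.57) and Col4a1 (0.54) varied in descending order. Sparc, a matrix protein gene, ranged from 3.21 in male 2 to 5.58 in male 4 (SD 0.72), and a second probe did not follow it (r = -0.43). Rspo3 and Fst did not pass the filter.

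**Figure D2:**
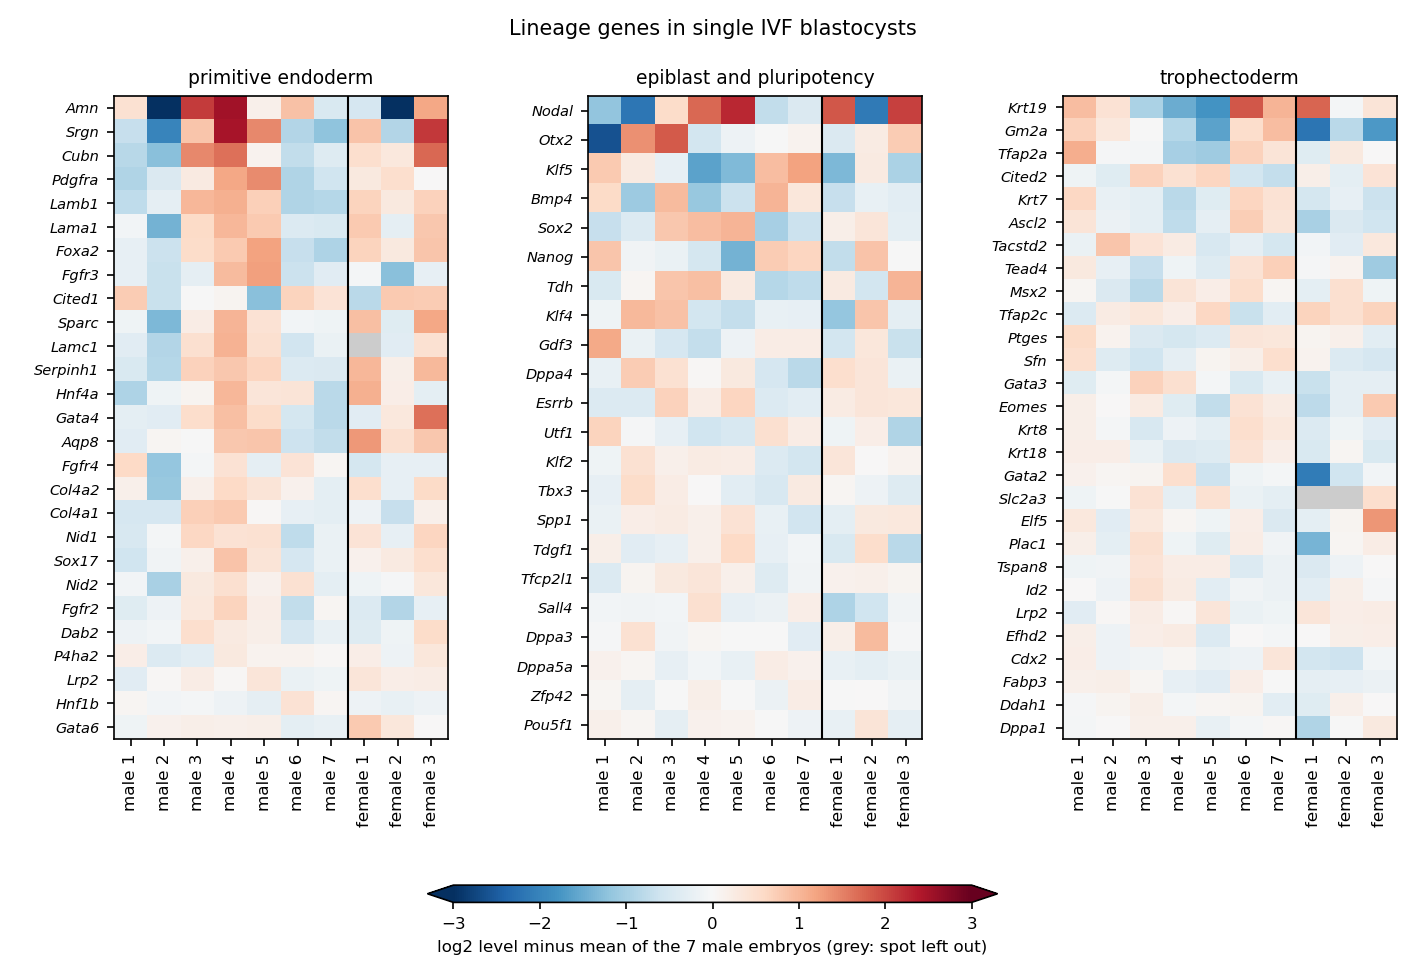
Heat maps of log2 level minus the mean of the 7 males for members of the primitive endoderm, epiblast and trophectoderm lists well above background in all males, with embryos as columns and grey for a spot left out. Primitive endoderm members are mostly high in male 3, male 4 and male 5 and low in male 2, whereas the members of the other lists follow no common order.

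Epiblast and pluripotency genes did not move together. The median correlation between members was -0.01, and the list mean ranged from -0.17 in male 7 to 0.28 in male 3. Of 22 members well above background in all males, 3 (13.6%) had an SD of at least 1, and these were Nodal, Otx2 and Klf5. Nodal, a signal of the TGF-beta family, measured -3.11, -4.09, -1.37, -0.19, 0.35, -2.65 and -2.35 in the males (SD 1.60) and -0.05, -4.04 and 0.13 in the females. Lefty1, an inhibitor and target of Nodal, was well above background in 5 of 7 males. It lay at -4.73, -5.72, -2.69, -0.35, -1.09, -2.74 and -5.72 in the males and at 0.27, -5.72 and -0.11 in the females. Both genes were highest in male 4, male 5, female 1 and female 3, and male 2 and female 2 were at the low end.

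Other factors of the list ran in different orders. Klf5, which acts in both trophectoderm and inner cells, lay at 6.47, 5.94, 5.42, 4.07, 4.35, 6.60 and 6.89 in the males (SD 1.11) and at 4.32, 5.95 and 4.72 in the females, so that male 4 and male 5 were lowest. Sox2, a factor of epiblast identity, lay at -0.33, -0.06, 1.15, 1.29, 1.37, -0.65 and -0.28 in the males (SD 0.87), and male 3, male 4 and male 5 were above the rest. Nanog, a factor of the epiblast, lay at 2.82, 1.87, 1.79, 1.45, 0.57, 2.74 and 2.63 in the males (SD 0.82) and at 1.24, 2.85 and 1.97 in the females. Male 1, male 6 and male 7 were above the other males, and the range was 4.78-fold. Otx2 was lowest in male 1 (-4.50) and highest in male 3 (-0.04). At the stable end, Zfp42 (SD 0.18), Dppa5a (0.18) and Dppa3 (0.24) stayed within a narrow band. Fgf5 and Lefty2 did not pass the filter, and Fgf4 and Prdm14 were not analysed here.

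Trophectoderm genes were the steadiest of the 3 lineages by the median SD of members over the males (0.38). It was 0.49 for epiblast and 0.65 for primitive endoderm. In the females the SD of the list mean was lower for epiblast (0.06) than for trophectoderm (0.11). The trophectoderm list mean was 3.94 to 4.37 per male. Genes with a mean of 2 to 4 and above 4 reached an SD of 1 in 2.06% and 1.15% of cases. The share was therefore not low for that level: of 28 members well above background in all males, 1 (3.57%) did so. It was Krt19, a keratin gene, at 0.03, -0.48, -1.86, -2.39, -2.69, 0.96 and 0.11 in the males (SD 1.41) and 0.84, -0.97 and -0.53 in the females. Male 3, male 4 and male 5 were lowest. Gm2a, a lysosomal activator gene, ranged from 3.94 in male 5 to 6.47 in male 7 (SD 0.92), and a second probe gave the same order of size (r = 0.99). The keratin genes Krt8 (SD 0.35) and Krt18 (0.34) and the lineage factor genes Gata3 (0.43), Eomes (0.41), Elf5 (0.31) and Cdx2 (0.21) were closer together. The order of embryos by the list mean depended on the scaling: male 5 was lowest (-0.21) and male 6 highest (0.22), but under median scaling male 4 (0.24) and male 5 (0.14) were the highest. Hand1 did not pass the filter.

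The 4 markers were set against each other embryo by embryo. Krt8 lay at 8.90, 8.66, 8.24, 8.56, 8.42, 9.21 and 9.04 in male 1 to male 7, and Cdx2, the trophectoderm factor, at 6.35, 5.99, 6.04, 6.19, 5.93, 5.99 and 6.50. Male 1, male 6 and male 7, the lower set by the chosen Gata6 probe, held the 3 highest values of Krt8 and of Nanog. The second Gata6 probe did not give these sets. Male 1, male 6 and male 7 were also the males with the highest median signal. Because the embryos fall into separate sets by the chosen probe, a pooled correlation with it is not read as a relation between markers. Sets of 3 and 4 embryos are too small to test one. By Cdx2 male 7 and male 1 were highest and male 5 lowest, a 1.48-fold range. The same sets enter the likeness of other genes, which is a description only. By Pearson's r over the 7 males the genes most like Gata6 were Tgfbr1 (0.995), Cir1, Vps26b, Ip6k1 and Pfn2 (0.990). Those most like Nanog were Mrpl10 (0.993), Ccm2, Rnaset2b, Actc1 and Bub3, but second probes of Ip6k1 (r = -0.78) and Bub3 (r = -0.79) did not follow the first.

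**Figure D3:**
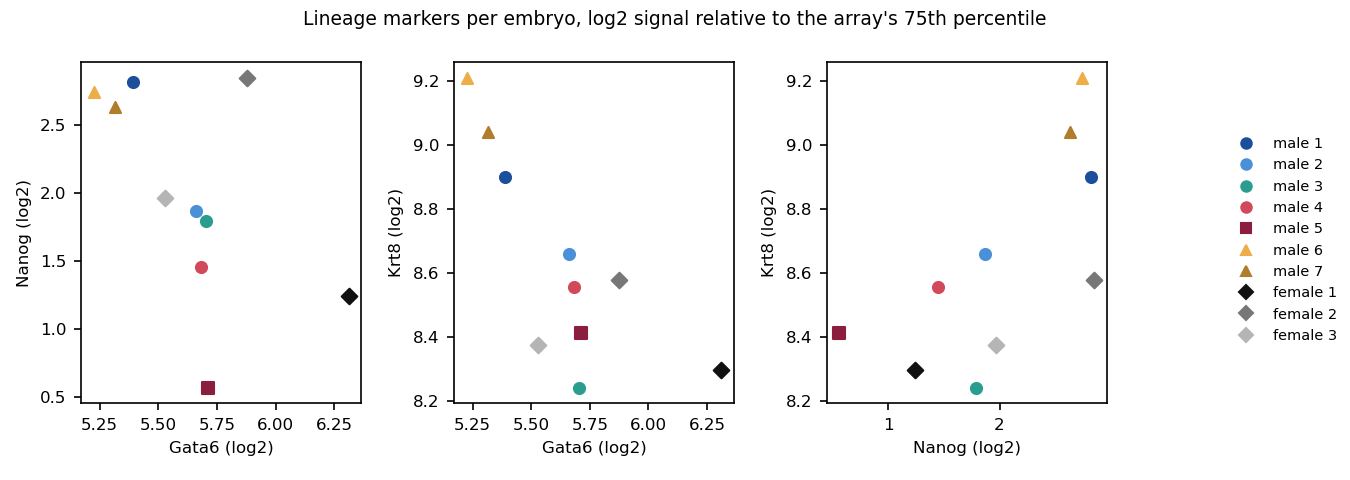
Log2 levels of Gata6, Nanog and Krt8 plotted in pairs, 1 point per embryo, with males and females marked apart. With the probes used, male 1, male 6 and male 7 form a set with Gata6 between 5.22 and 5.39 and Nanog between 2.63 and 2.82, apart from the other males.

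Genes of the integrated stress response were high in male 1, male 6 and male 7. This pathway slows translation when amino acids run short or proteins misfold, while the factor Atf4 turns on genes for amino acid supply and for damping the response. The list mean was 0.68 in male 1, 0.66 in male 7 and 0.62 in male 6. It was -0.23 in male 3 and male 4, -0.72 in male 2 and -0.78 in male 5. Among the females it was 0.63 in female 3, 0.16 in female 1 and -0.80 in female 2. The same 3 males were highest under median scaling, quantile normalization and normexp correction and in the authors' table, while male 2 replaced male 5 as the lowest under median scaling. Of 27 listed genes 26 passed and 22 were well above background in all males. Of these 22, 4 (18.2%) had an SD of at least 1, and 11 (50.0%) were higher in each of male 1, male 6 and male 7 than in every other male, against 21.5% of all genes. Ribosomal protein genes showed that split in the same share (34 of 68, 50.0%), so it is not particular to the stress list. Male 6, male 7 and male 1 also had the highest median signals of the males (0.31, 0.17 and 0.13). The part of the median signal in this split was not tested.

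Promoter stretches of 4 of these genes are shown because they hold the core of the amino acid response element that Atf4 is known to bind. The motif TGATGNAA was searched on both strands in RefSeq promoters of the build GRCm38.p6, 300 bases each and mostly before the gene's start. It was found in 8 of 24 listed genes matched by symbol (33.3%) and in 1219 of 27025 genes in all (4.51%). The list was made of genes of this pathway, so its share is not independent of that choice and is a description only. Whether the motif goes with the spread between embryos was not tested. A match is a description of these letters and not a site shown to be used. The stretches read 5′ to 3′ on the strand of the gene, with the match in capitals, which is TTGCATCA where the motif lies on the opposite strand.
Chac1, chr2:119351024-119351081, plus strand: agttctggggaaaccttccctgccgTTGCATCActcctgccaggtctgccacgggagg
Nupr1, chr7:126625548-126625605, minus strand: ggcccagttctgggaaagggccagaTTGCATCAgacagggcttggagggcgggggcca
Atf3, chr1:191183411-191183468, minus strand: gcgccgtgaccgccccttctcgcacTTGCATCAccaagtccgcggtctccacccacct
Asns, chr6:7693210-7693257, minus strand: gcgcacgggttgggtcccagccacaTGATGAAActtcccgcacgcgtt

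Members of the stress list differed widely in their spread, and Chac1, Nupr1 and Trib3 had the highest SD. Chac1, which encodes a glutathione-degrading enzyme, was well above background in 6 of 7 males, at 1.66, -3.51, -1.88, -1.75, -5.72, 1.64 and 1.87, and lay at -1.01, -5.72 and 1.18 in the females (SD 2.95 in males). Trib3, a pseudokinase gene, lay at 3.49, -0.33, 0.13, -1.58, -1.63, 3.38 and 3.13 in the males and at 0.73, -2.20 and 1.5 in the females (SD 2.33). In both genes male 1, male 6 and male 7 stood clear of the other males. Nupr1, a stress-induced chromatin protein gene, lay at 0.83, -3.54, 0.36, -1.81, -4.58, 0.97 and 1.27 in the males (SD 2.38), with male 3 close below the upper 3. Ddit4, an inhibitor of mTOR signalling, measured 3.14, -0.41, 1.80, 1.48, -0.63, 2.93 and 2.98 in the males and 4.26, 0.44 and 3.85 in the females (SD 1.59). Female 2 was below the other females in all 4 genes.

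Genes of amino acid and folate metabolism followed with smaller ranges. Mthfd2, a mitochondrial folate enzyme, ranged from -0.07 in male 2 to 2.64 in male 7 (SD 1.05). Asns, asparagine synthetase, lay at 6.91, 5.30, 5.72, 5.81, 6.01, 6.92 and 6.85 in the males (SD 0.67), a 3.08-fold range with male 1, male 6 and male 7 on top. Psat1 (SD 0.67) and Phgdh (0.58), enzymes of serine synthesis, were also highest in male 6. Atf4 (SD 0.27) and Xbp1 (0.23), the transcription factors of the response, and the chaperone genes Hsp90b1 (0.30) and Calr (0.33) differed little. Atf3, a factor induced downstream, was well above background in 5 of 7 males and ranged from the floor in male 3 and male 5 to -1.5 in male 1. Slc7a11 did not pass the filter.

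**Figure D4:**
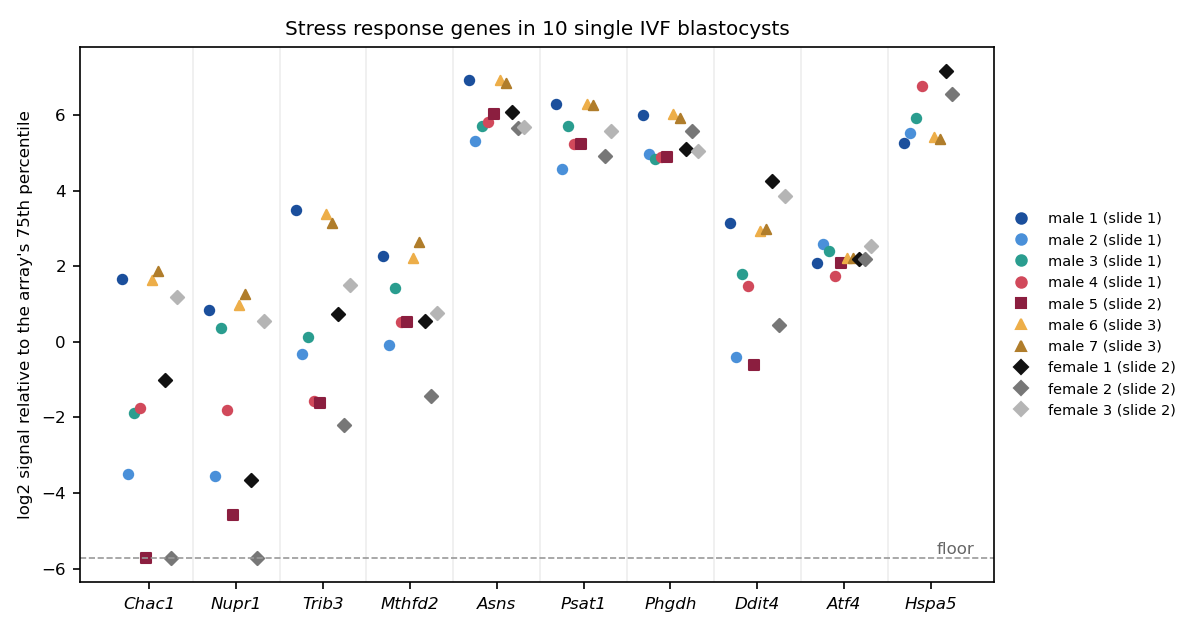
Log2 level of stress response genes in each IVF blastocyst, 1 point per embryo and gene, with 0 at the 75th percentile of the array. Chac1, Nupr1 and Trib3 lie highest in male 1, male 6 and male 7, and Atf4 stays between 1.74 and 2.58 in all 7 males.

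Male 4 and male 5 departed from the rest over the whole transcriptome. Of genes measured in the males, 16% in male 4 and 15.3% in male 5 lay 2-fold or more from the median embryo, against 7.40% to 12.3% in the other males. The first principal component of the males held 48.0% of the variance and ran from male 6 (-61.7) and male 1 (-50.2) to male 5 (67.0) and male 4 (70.7). Female 3 (47.9) and female 1 (40.2) projected towards the upper end and female 2 (11.3) nearer the middle. Male 4, male 5, female 1 and female 3 had the low median signals given above, and male 6, male 7 and male 1 the highest. The part of the median signal in this component was not tested. Male 4 lay on the slide of male 1 to male 3, and male 5 on that of the females. Embryo pairs on 1 slide correlated at a median of 0.961 over 7 male pairs, against 0.944 over 14 pairs on different slides.

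Some genes had 2 distinct levels. Of the 17664 genes that passed the detection filter, 114 split the males into sets of at least 2 embryos. The gap between the sets was at least 8-fold, a rule chosen after values had been seen. In many of the 114 the lower set held embryos at the floor, where a level is only an upper bound. Male 4 and male 5 formed the upper set in 24 of the 114 and the lower set in 32. The female arrays were not used in that rule, but the detection filter used them. A gene well above background in no male but male 4 and male 5 passed that filter only through the females. The female share of the upper set is therefore partly set by the filter, and it is a description only. Of the 17 upper-set genes with 3 female values, 16 (94.1%) were higher in both female 1 and female 3 than in female 2, against 25.3% of all genes. Of the 32 lower-set genes, 26 (81.2%) were lower in both than in female 2, against 34.0%. Female 1 (-0.30) and female 3 (-0.45) also had a lower median signal than female 2 (-0.13), as male 4 and male 5 had among the males. The part of the median signal in these splits was not tested. A gene symbol was found for 17 of the 24 (70.8%) and for 8 of the 32 (25%), against 81.7% of all genes, so most of the lower set are transcripts known only by an accession.

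Ncf1, a subunit of the phagocyte NADPH oxidase, had the highest SD of the genes well above background in all 7 males (3.32). It lay at -4.22, -5.24, -4.98, 2.42, 1.74, -4.92 and -3.93 in the males and at 1.71, -4.42 and 2.86 in the females. Fgf8, an FGF ligand, lay at -1.40, -2.0, -1.96, 2.31, 2.49, -2.45 and -0.79 in the males and at 2.67, -1.66 and 2.97 in the females. Male 4, male 5, female 1 and female 3 were high in both genes with no overlap with the other 6 embryos. Nrbp2, a pseudokinase gene, followed the same order with male 7 (0.11) between the sets. Kremen1, a co-receptor that restrains Wnt signalling, did so too with its chosen probe (SD 2.67), but the mean over its probes had an SD of only 0.72. In the lower set, Csnk1e, casein kinase 1 epsilon, lay at 4.15, 4.39, 3.50, -0.14, -0.04, 4.67 and 4.19 in the males and at 0.64, 3.06 and 0.92 in the females. Fto, an RNA demethylase gene, was at the floor in male 4, male 5 and female 1 and between -0.48 and 1.33 in the other embryos.

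**Figure D5:**
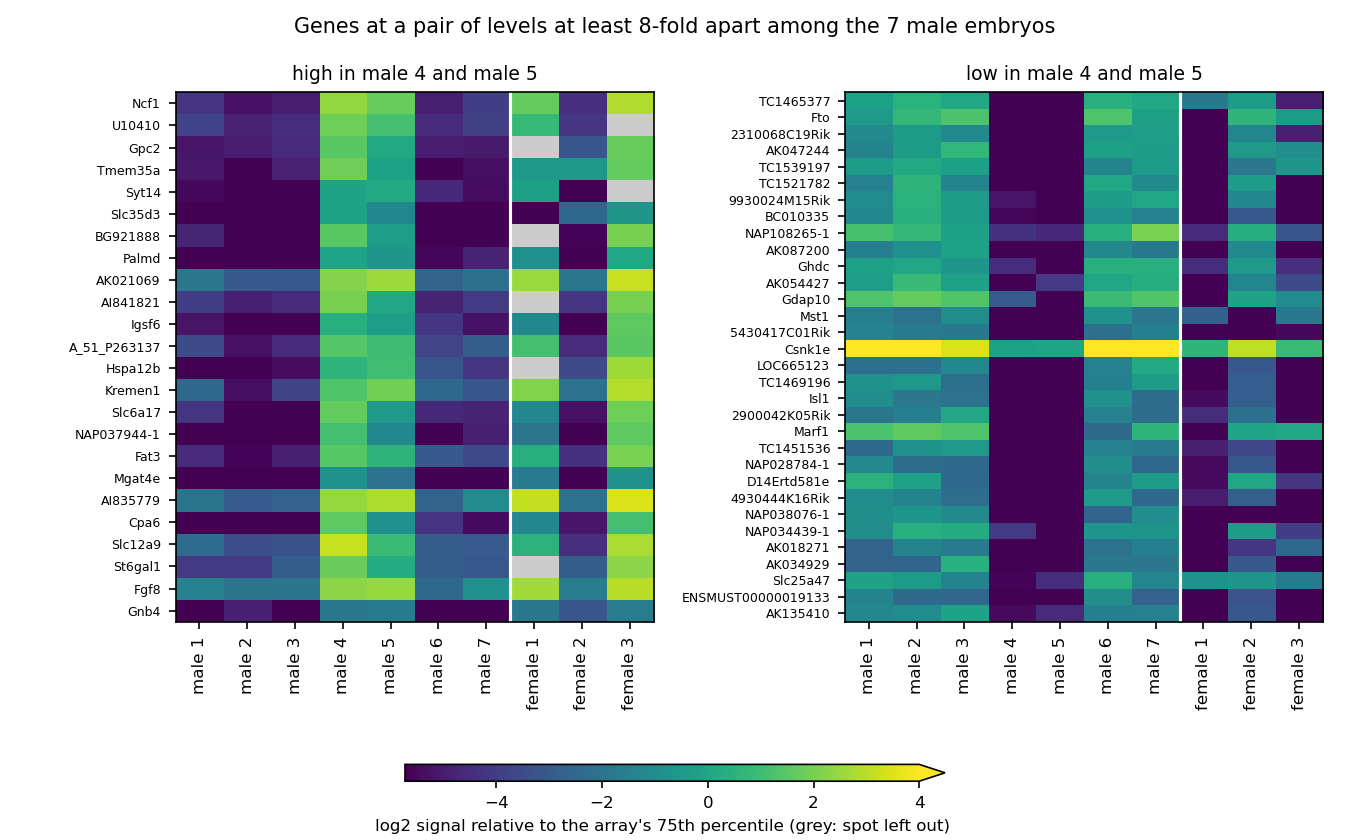
Heat maps of the log2 level of the 24 genes high and the 32 genes low in male 4 and male 5 across a gap of at least 8-fold, with the 3 females beside the 7 males and grey for a spot left out. Ncf1 and Fgf8 are high in male 4, male 5, female 1 and female 3, and Csnk1e is low in the same embryos.

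Further genes with a high SD followed several orders. Actc1, cardiac alpha-actin, lay at 3.22, -1.08, 0.26, -1.40, -5.20, 3.28 and 3.35 in the males (SD 3.21) and at -5.47, -4.25 and 0.33 in the females. Male 1, male 6 and male 7 were high, as for the stress genes. Rbm47, an RNA-binding protein gene, lay at 4.32, 4.18, 1.67, 0.07, -1.56, 4.67 and 5.17 in the males (SD 2.61) and at -1.85, 0.18 and -2.04 in the females. Dio3, an imprinted gene for the enzyme that inactivates thyroid hormone, was high only in the same 3 males (1.49, 1.11 and 1.64) and at or below -1.61 in the other 7 embryos. Malat1, a long nuclear RNA, ranged from -3.34 in male 5 to 3.84 in male 2 (SD 2.62), but the mean over its probes had an SD of 1.00. D10Bwg1070e (SD 3.24) was at the floor in male 5, low in male 1 (-3.67) and between 0.90 and 2.41 in the other males.

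Imprinted genes as a list did not move together, with a median correlation between members of 0.0043 over the males. Of 34 imprinted genes well above background in all males, 4 (11.8%) reached an SD of 1, close to the share of all genes, and the list mean had an SD of 0.13. Mest, expressed from the paternal allele, lay at 0.83, 1.12, 2.47, 4.05, 4.52, 1.21 and 1.32 in the males (SD 1.51), a 12.9-fold range, and at 3.48, 2.65 and 3.61 in the females. Plagl1, a zinc finger gene, was lowest in male 7 (-4.02) and highest in male 4 (2.15). Of the X-linked Rhox homeobox genes, Rhox5 lay at 0.90, 1.36, 0.91, 3.14, -1.27, 1.28 and 0.57 in the males (SD 1.30), with male 4 highest and male 5 lowest, and at 4.72, 4.68 and 4.82 in the females. Magea3 ranged from 0.03 in male 3 to 2.43 in male 2 (SD 0.89), and none of the 9 Magea and Xlr genes measured reached an SD of 1, although their median correlation was 0.41.

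The 20 brightest genes included ribosomal, translation and keratin genes, and some of them had no gene symbol. By mean level over the 10 arrays the first was Dppa5a, an RNA-binding protein gene of early embryos, at 9.11, 9.05, 8.74, 8.91, 8.77, 9.22 and 9.13 in the males and 8.76, 8.70 and 8.78 in the females. The other named genes were the ribosomal and translation genes Rps16, Rps2, Rplp2, Rplp0, Rack1 and Eef1a1, the keratin genes Krt8 and Krt18, and Fabp3, Mt2, Ptma and Odc1. Their male SD ran from 0.12 for Ptma to 0.47 for Mt2, which encodes a metal-binding metallothionein. Signals differ with the probe as well as with the RNA, so this is an order of probes. Of genes above the 75th percentile, the steadiest were Gabarapl2, Cdc5l and Nek2, each with an SD of 0.05 over the males, but a second probe of Gabarapl2 did not follow the first (r = -0.014) and had an SD of 0.306. They act in autophagy, splicing and mitosis.

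Few genes passed the test between male and female embryos, among them 5 Y-linked genes and Xist, which gave the widest differences of those that passed. By limma with Benjamini-Hochberg adjustment, 22 of 17633 genes (0.125%) passed an adjusted p of 0.05, 10 higher in males (0.0567%) and 12 lower (0.0681%), and 1471 had an unadjusted p under 0.05. Ddx3y, a Y-linked RNA helicase, was higher by 9.05 (SE 0.477, limma adjusted p = 2.59e-05), at least 531-fold, and Eif2s3y at least 519-fold. Uba1y, Usp9y and Kdm5d, also Y-linked, were at the floor in all 3 females. Xist, the RNA that coats the inactive X, had a difference of -7.78 (SE 0.493, limma adjusted p = 6.33e-05) and lay at 3.15, 2.02 and 2.31 in the females, while male 2 (-3.61) and male 7 (-4.79) were above the floor. Autosomal genes lower in males included Rasgrf1, an imprinted Ras activator gene, at -1.56, -2.31 and -2.14 in the females and at or below -5.38 in every male. Fabp4, a fatty acid carrier gene, had a mean of -1.29 in females and -5.21 in males. The females shared a slide with male 5 only, and male 5 lay at -5.68 for Rasgrf1 and at -5.44 for Fabp4. With slide as a fixed block 12 genes passed in place of 22, and without female 2 or female 3 the counts were 35 and 41. On simulated data 56% of changes of 2 log2 units were recovered, so a low count does not show that the sexes were alike.

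The number of genes that differed between slides among the males depended on the scaling. By limma's F test over the slides, 4 of 17409 genes passed (0.023%), Sox11, Angpt2 and a pair of transcripts without symbols, each with an adjusted p of 0.0426. Under median scaling and under quantile normalization 36 genes passed, and 20 in the authors' table. On simulated data the test recovered 3% of changes of 2 log2 units, so a low count does not show that slides were alike. All 4 were highest on the slide from which male 5 was the only male, so slide and embryo cannot be told apart for them. The median SD within slides was 0.47, and 1230 genes reached an SD of 1 within slides, against 1524 over all 7 males. Male 5 adds nothing to the SD within slides, which rests on 4 degrees of freedom. The lower count may therefore reflect its loss as well as the removal of slide means. Without male 6 and without male 7 the counts by the F test were 15 and 27, and without any of the other males the count was 0, with 1161 to 3623 genes at an unadjusted p under 0.05.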

How the data were processed

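The deposited scanner files held spot intensity values from Agilent Feature Extraction 9.5.3.1 and scanner G2505B, per the file headers, while the submitters' processing notes name version 10.5.1. The processed signal had been background-corrected by that software, per the file headers. The authors' deposited value table held log2 values of the same arrays, centred within each sex. For a check, values were recomputed with a lower floor, and both they and the authors' values were centred per probe within each sex. They then differed by a median of 0.00664 in males and 0.00648 in females. Column medians of the authors' table ran from -0.59 to -0.23, and it served as an alternative only.

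Control spots and spots marked as outliers (160 to 338 per array) were dropped before repeat spots were averaged per probe. Signals were divided by the array's 75th percentile, floored at 0.0189 of it and log2-transformed, which put 42.4% of the probe values at the floor. Of 41169 probes, 25658 passed by being well above background on most of the arrays of the males or of the females, and 17664 genes remained, 14440 of them with a RefSeq symbol. Of several probes of a gene, the one with the highest mean was used.

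The number of arrays, 7 and 3, limits the precision. Within each sex the SD over embryos was a description with no test. Male and female embryos, and slides among males, were compared with limma 3.58.1 in R 4.3.3 (8 residual degrees of freedom for sex), adjusted over all genes by Benjamini-Hochberg. Other values came from python 3.11.15 with numpy 2.4.6, pandas 2.3.3 and scipy 1.17.1. On simulated data 56% of genes changed by 2 log2 units and 87% of those changed by 4 were recovered between the sexes, and 3% and 62% between slides. Promoter sequences came from RefSeq (GRCm38.p6).

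Named genes were the brightest 20, the 20 and 10 most variable in males and females, 10 detected on part of the male arrays, up to 10 per direction between the sexes, all members of the 3 lineage lists and up to 5 of each other list, 10 at each end of the first component, 10 of the steadiest, those most like a marker and those of the slide test. Further members of the stress list and of the splits between embryos were chosen after their values were seen. The embryos and gene lists were chosen with earlier results of these data known. Alternatives covered background correction, scaling, floor, filter, probes, slides and each embryo left out.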

Additional observations from a re-analysis of the deposited data

Results flagged for a closer look

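Of 76 group values examined, 5 had 1 male embryo that stood far from the other 6, a share of 6.58%, and chance alone gives about 1 in 20. The mean of the amino acid transporter genes was -0.56 in male 2, below the other males. The mean of the fatty acid and lipid droplet genes was -0.42 in male 3, below the rest. Amn, the partner of cubilin, was at -4.73 in male 2. The probe NAP058332-1, a bright transcript without a gene symbol, lay at 8.40 in male 5. Ptma, which encodes prothymosin alpha, lay at 8.24 in male 5, the lowest of the males. Male 5 was the lowest male in most of the 20 brightest genes, among them Fabp3, Rplp2 and Eef1a1, so this is not particular to the flagged bright genes.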

How the results depend on the processing

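The count of variable genes in male IVF embryos (1524) was 618 with normexp correction, whose offset compresses dim signals, and 3140 when detection on most male arrays sufficed. It was 1475 to 1706 with 1 male left out. For variable genes in female IVF embryos (1892) it was 1059 with normexp and 1761 to 2030 with 1 female left out. The median list SD in males (0.24) was 0.38 under median scaling and 0.20 to 0.26 with 1 male left out, and in females (0.22) it was 0.10 to 0.22 with 1 female left out, the lowest without female 1. The sex comparison (22 genes) gave 4 when every array had to be well above background, which drops genes not detected in 1 sex, 12 with slide as a fixed block and 16 to 41 with 1 embryo left out. Blocking on replicate numbers 1 to 3 gave 0 by limma (1618 at an unadjusted p under 0.05), against 18 for the same arrays without the replicate block. Same-numbered embryos correlated at 0.00093, 0.267 and 0.0924 in their deviations from the mean of their sex. Differently numbered embryos were not set beside them, so whether the numbers pair the embryos is not settled. The slide comparison (4 genes) gave 36 under median scaling and under quantile normalization and 20 in the authors' table. By limma it gave 0 with normexp (1166 at an unadjusted p under 0.05), with detection on every array (1002), with the floor halved (1417) and on slides with at least 2 males (1392), and 0 to 27 with 1 male left out. Of 6 marker pairs, 1 passed by an exact permutation test of the correlation over the 7 males, Gata6 with Krt8 (adjusted p 0.00238 to 0.718 over the alternatives). The number was 3 with normexp, 2 in the authors' table, 0 under median scaling, quantile normalization and the mean over probes, and 1 to 2 with 1 male left out. Under median scaling the correlation turned from -0.47 to 0.58 for Gata6 with Cdx2 and from 0.56 to -0.20 for Nanog with Cdx2. The cause of these shifts was not tested where none is named. The arrays give signal over background and no depth, so a gene at the floor has only an upper bound, and the spread of such genes is uncertain.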
